A study of Saccharomyces cerevisiae with 3 samples.

Results

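The genomes of Sc1 and Sc2, parental strain 1 and parental strain 2 of an artificial intraspecific hybrid of the yeast Saccharomyces cerevisiae, were compared with each other by array comparative genomic hybridisation. Per the labels, the strains had been cultivated and dried at industrial scale, their DNA was fragmented with Hinf I, and equal amounts of Cy3-labelled and Cy5-labelled DNA were hybridised together on a pair of arrays per comparison, the dyes being swapped between them. The series has 3 samples, each 1 pair of strains: Sc1 against Sc2, the hybrid R2 IVo against Sc1, and R2 IVo against Sc2. All 3 strains are named without a ploidy, a number of cultures or a number of clones. The results below are on the Sc1 against Sc2 sample, which is called the direct sample, and on all of its open reading frames (ORFs) with a value. These were 6171 of the 6178 ORFs of the deposited table, and the 2 control spots were dropped.

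In such an experiment each ORF gives a ratio of the DNA of the strains bound by its spot, and the ratio departs from the bulk of the genome where a gene is deleted, amplified or different in sequence from the spotted probe. Laboratory and industrial yeasts share nearly all of their single-copy genes. They are known to differ most near the chromosome ends, where families of sugar transporters, maltose genes and flocculins lie beside repeated telomeric Y′ elements, and in the number of Ty retrotransposons, which copy themselves through RNA into new sites.

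Ratios are given as log2 of Sc1 over Sc2, after the median of the sample (0.013 as deposited) was subtracted. The base of the logarithm and the numerator are likely readings of a table that states neither, and an opposite direction would turn every sign below. A low ratio from fewer copies and one from diverged sequence cannot be told apart here. Gene families also share sequence, and how much of a member's value came from its relatives was not tested. Since the table holds 1 value per ORF and strain pair, the only check of the direct value is the indirect path through the hybrid, the hybrid over Sc2 value minus the hybrid over Sc1 value. The direct value and that path use the same strains' DNA and were combined in a limma fit with 1 residual degree of freedom per ORF. An adjusted p under 0.05 counted as a call, over the 6123 ORFs with all 3 values, and the p-values measure array error, not the spread between cultures. Fits are given as estimate ± SE, and values without an SE are direct ratios.

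Most of the genome gave equal signal in the parents. The direct ratio lay within 0.25 of 0 for 5784 ORFs (93.7%), the quartiles were −0.07 and 0.06, and the robust SD was 0.10 on the log2 scale against 0.13 on the indirect path. The tails were longer on the side of Sc2: the ratio was at least 1 in size for 53 ORFs, of which 9 were higher and 44 lower in Sc1. The indirect path was also at least 1 in size, in the same direction, for all 9 of the higher ORFs and for 34 of the 44 lower ones. Of the 53, 51 were called by the fit, and 21 of these were on neither the Ty nor the Y′ list. By limma 121 ORFs (1.98% of those tested) were called, against 586 (9.57%) at an unadjusted p under 0.05. Of the 121, 32 (0.523% of those tested) were higher and 89 (1.45%) lower in Sc1. Repeats made up much of this imbalance: 43 of the 89 were listed Ty or Y′ ORFs, and none of the 32 was. With Ty, Y′, COS, seripauperin and DUP240 ORFs left out of the fit, 24 were called higher and 31 lower. The smallest called estimate was 0.36 in size.

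**Figure D1:**
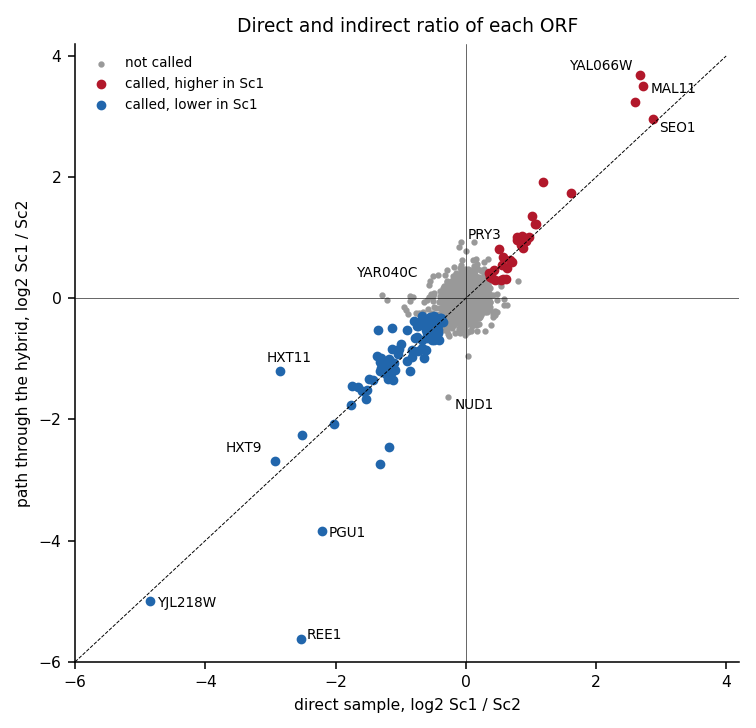
Direct ratio of each of the 6123 tested ORFs (x axis, log2 Sc1 over Sc2) against the same ratio through the hybrid (y axis, log2), with the dashed line where both are equal. The called ORFs lie in the lower left and upper right quadrants, REE1 lies well below the line, and YAR040C had a large value on the direct axis only.

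No whole chromosome stood apart. The median direct ratio of the 16 chromosomes ran from −0.02 (VIII) to 0.03 (VI), and 15 of them lay within 0.02 of 0. The medians of the 32 arms ran from −0.05 (right arm of I) to 0.06 (left arm of VI). For scale, 3 copies against 2 would give a ratio of 0.58. Through the hybrid the chromosome medians were wider, from −0.06 (IX) to 0.10 (I), and chromosome I, the highest there, was within 0.02 of 0 in the direct sample. A difference in ploidy of the whole genome would not show, since equal amounts of DNA were used and the ratios were centred. The called ORFs were unevenly placed: chromosome VI held 15 among 125 tested ORFs (12%, against 1.98% over all), chromosome X held 17 among 383 (4.44%), and chromosome XV held 3 among 557 (0.539%). All 6 calls on chromosome VII were higher in Sc1.

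**Figure D2:**
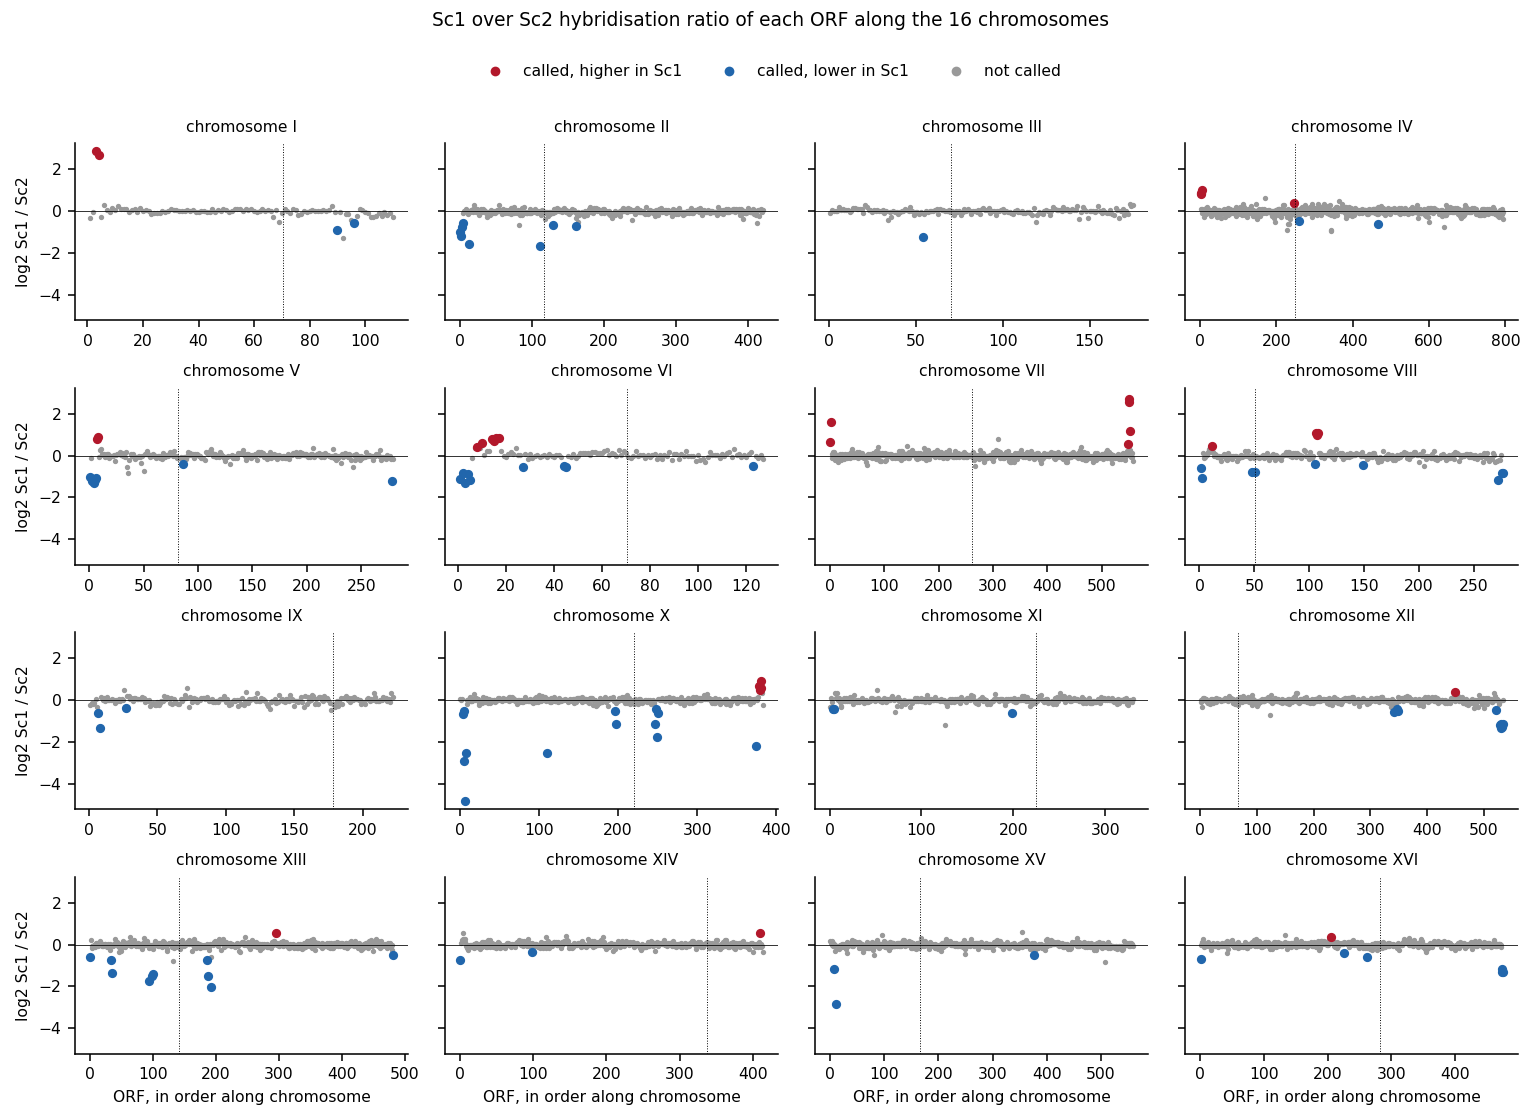
Direct ratio (y axis, log2 Sc1 over Sc2) of each ORF in its order along each of the 16 chromosomes (x axis, rank), with called ORFs in colour and the centromere as a dotted line. The bulk of each chromosome lies near 0 and the tallest departures stand at chromosome ends, such as MAL11 on VII and YJL218W on X.

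The differences between the parents were concentrated near the chromosome ends. Of the 5 outermost measured ORFs of every arm, 45 of 159 tested (28.3%) were called, and the share was 11.9% at ranks 6 to 10, 2.82% at ranks 11 to 20, 0.790% at ranks 21 to 40 and 0.851% farther in. With the listed Ty and Y′ ORFs left out the same shares were 16.8%, 10.8%, 2.52%, 0.794% and 0.563%. The 20 outermost ORFs of the arms made up 10.5% of the tested ORFs with a known position and held 61.3% of the calls, and 24 of the 32 arms had at least 1. Of these 73 calls 25 were higher and 48 lower in Sc1, and 21 of the lower ones were on neither the Ty nor the Y′ list. Some unlisted ORFs lie in a run with listed Y′ ORFs, such as YFL067W and YFL068W on VI and YEL075W-A on V. Whether they carry Y′ signal was not tested. Neighbouring ORFs share sequence and genomic segments, so the counts are not counts of separate events.

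**Figure D3:**
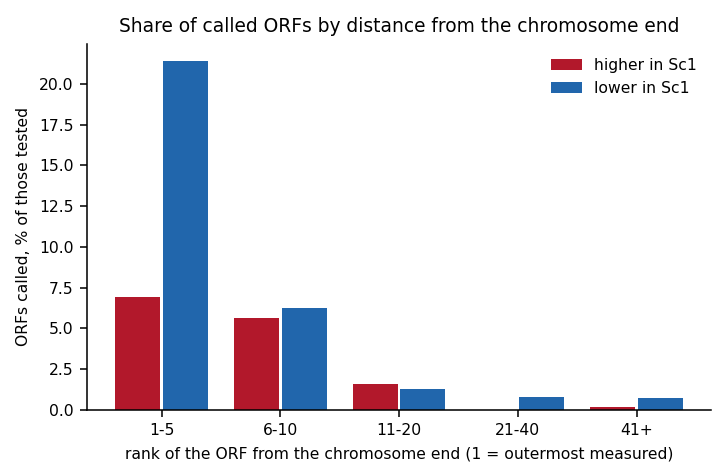
Share of tested ORFs called higher and called lower in Sc1 (paired bars, y axis, %) by rank from the chromosome end (x axis). At ranks 1 to 5, 11 ORFs were called higher and 34 lower. Calls in either direction, which are not drawn as a bar, fell from 28.3% at ranks 1 to 5 to under 1% beyond rank 20. Without the listed Ty and Y′ ORFs, also not drawn, the share at ranks 1 to 5 was 16.8%.

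Runs of neighbouring ORFs made up much of this pattern. There were 14 blocks of at least 3 consecutive ORFs at 0.3 or more in size with the same sign in the direct sample and on the indirect path. The blocks held 55 ORFs, 52 of them called, and none was longer than 5 ORFs. Of the 14, 12 lay within the 20 outermost ORFs of an arm and 6 were higher in Sc1. Of the 8 lower ones, 6 held listed Y′ or Ty ORFs, 3 of these holding no unlisted ORF.

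The largest gains of signal in Sc1 were at a maltose locus on the right arm of chromosome VII and at a permease gene on the left arm of chromosome I. MAL11, which encodes an alpha-glucoside permease, had a direct ratio of 2.72, a hybrid over Sc1 ratio of −3.40 and a hybrid over Sc2 ratio of 0.11. MAL13, the activator gene of that locus, had 2.60, −3.76 and −0.52 in the same order, and YGR290W beside them had 1.19, −2.34 and −0.43. All 3 were thus higher in Sc1 than in either other strain, and the limma estimate for MAL11 was 2.98 ± 0.16 (adjusted p = 2.53e-04). The isomaltase gene IMA1 on their inner side was also called at a direct ratio of 0.55. The run then ended on both sides, with the biotin synthase gene BIO2 at 0.04 and YGR291C and the maltase gene MAL12 at 0.26 and −0.08, none of them called. MAL12 was at 0.34 on the indirect path.

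SEO1, a putative permease gene, had a direct ratio of 2.87, a hybrid over Sc1 ratio of −0.89 and a hybrid over Sc2 ratio of 2.06 (limma 2.90 ± 0.063, adjusted p = 1.03e-05). Its neighbour YAL066W had 2.68, −1.06 and 2.63. At this locus, unlike at MAL11, the hybrid had more signal than Sc2 and less than Sc1. The flanking ORFs PAU8 and YAL065C-A were at −0.03 and −0.27, so the run held only SEO1 and YAL066W. On the left arm of chromosome VII, YGL262W was at 1.61 (limma 1.66 ± 0.066, adjusted p = 1.11e-04) and COS12, a member of the COS family of subtelomeric membrane proteins, at 0.64, while PAU11 was at −0.09.

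The higher blocks on chromosomes IV and X hold related genes. On the left arm of IV the alpha-glucoside permease gene MPH2 was at 0.87, the sorbitol dehydrogenase gene SOR2 at 0.83 and the transporter gene HXT15 at 1.01, between COS7 at 0.13 and the thiamine gene THI13 at 0.11. On the right arm of X, YJR157W was at 0.68, HXT16 at 0.51, the sorbitol dehydrogenase gene SOR1 at 0.93 and MPH3 at 0.57, beside THI11 at 0.14 and COS5 at 0.35. All 7 ORFs of both blocks were called, with indirect ratios from 0.64 (YJR157W) to 1.36 (HXT15), and none of the flanking ORFs was. The related mannitol dehydrogenase gene MAN2 on chromosome XIV was called at 0.55, with HXT17 beside it at 0.13 and not called.

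The left end of chromosome VI carried differences in both directions. Its 5 outermost ORFs were called lower in Sc1, with ratios from −1.30 (YFL066C) to −0.85 (YFL067W). Next to them YFL063W was at −0.12, and then followed the higher ORFs COS4 at 0.35, the cyanamide hydratase gene DDI3 at 0.43, and the vitamin B6 genes SNO3 at 0.38 and SNZ3 at 0.62, of which DDI3 and SNZ3 were called. THI5 was at 0.01. A second higher block held the amino acid permease gene AGP3 at 0.78, the aquaglyceroporin-like gene AQY3 at 0.71, the dihydroxyacetone kinase gene DAK2 at 0.86 and the zinc cluster regulator gene ZNF1 at 0.86, all called. The magnesium transporter homologue ALR2, 2 ORFs farther in, was back at −0.00. The left end of chromosome V had the same order of signs, with YEL076C at −1.23 and YEL074W at −1.05 beside YEL073C at 0.78 and the sporulation gene RMD6 at 0.91, all called. The 3 ORFs inside RMD6 were not called, and there the paths differed: the lactate dehydrogenase gene DLD3 was at −0.07 in the direct sample and 0.63 through the hybrid, and HXT13 at 0.34 and 0.65.

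**Figure D4:**
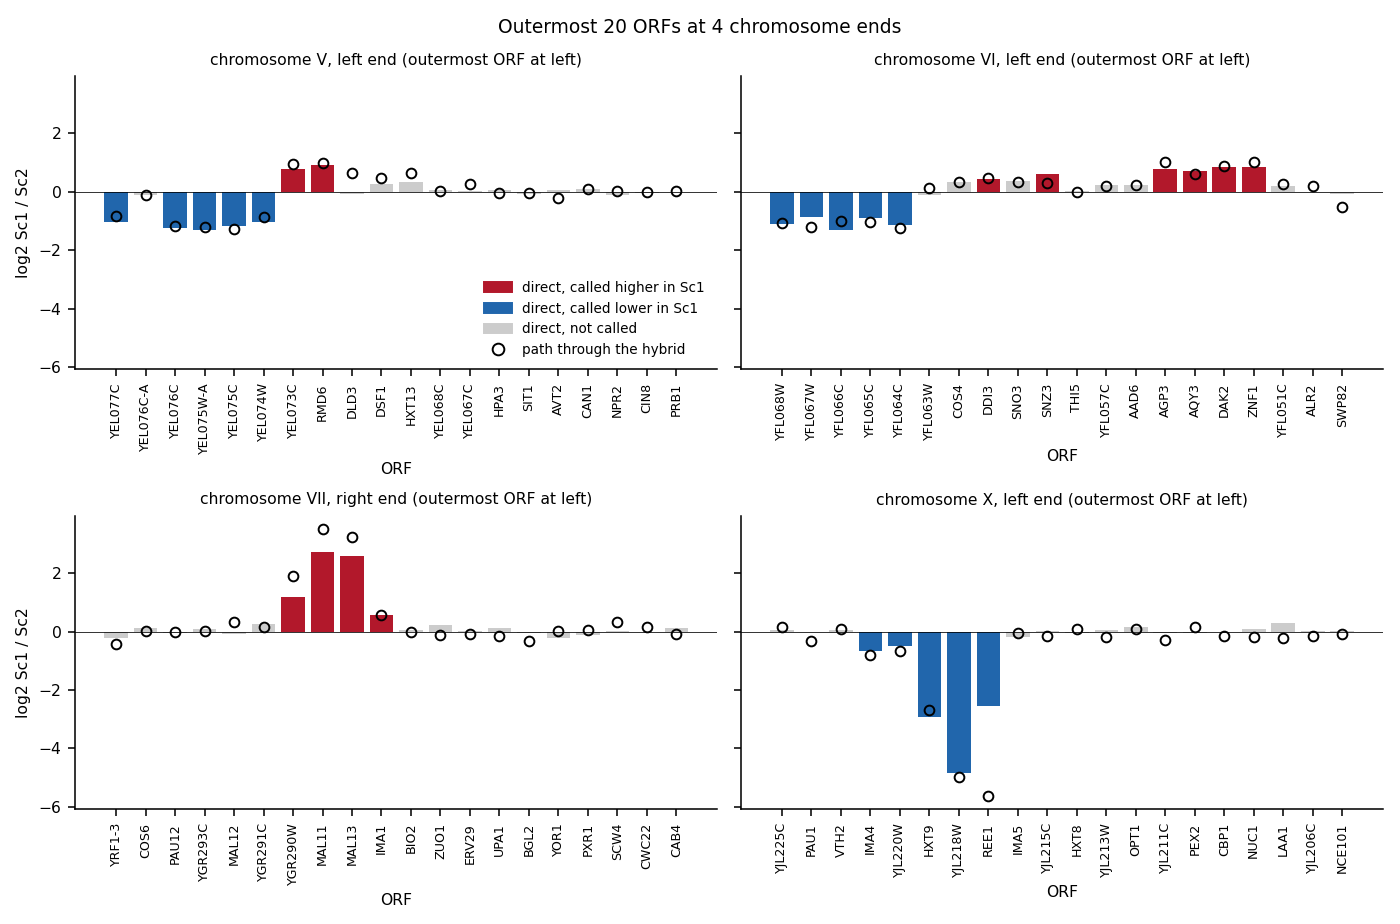
Direct ratio (bars) and ratio through the hybrid (open circles), both in log2 Sc1 over Sc2 on the y axis, for the 20 outermost ORFs (x axis) at the left ends of chromosomes V, VI and X and the right end of VII. V and VI change from lower to higher signal in Sc1 within a few ORFs, and MAL11 and MAL13 are the highest of 4 called neighbours on VII. On X the ORFs from IMA4 to REE1 are lower, with VTH2 at 0.05 on the outer flank and IMA5 at −0.20 on the inner one.

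The copper metallothionein genes were higher in Sc1 although they lie in the interior of chromosome VIII. CUP1-1 was at 1.07 in the direct sample, −0.59 in the hybrid over Sc1 and 0.63 in the hybrid over Sc2, and CUP1-2 was at 1.07, −0.68 and 0.54. YHR054C between them was at 0.97. The hybrid thus lay between its parents at these 3 called ORFs, whose limma estimates were 1.12 ± 0.068, 1.12 ± 0.068 and 0.99 ± 0.062 (adjusted p = 3.83e-04, 3.88e-04 and 4.32e-04). The spots of both CUP1 genes report on the same tandem repeat and are not separate measurements of it. Outside the repeat RSC30, a subunit gene of a chromatin remodeller, was at 0.12 and not called, and CIC1, a ribosome assembly gene on the other side, was called lower at −0.39, a call lost without centring, without the multi-copy families and with 4 prior degrees of freedom.

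The lowest ratio of the sample was found on the left arm of chromosome X. YJL218W, which resembles sugar acetyltransferases, had a direct ratio of −4.85, a hybrid over Sc1 ratio of 4.78 and a hybrid over Sc2 ratio of −0.22, which makes the direct difference 28.8-fold (limma −4.90 ± 0.067, adjusted p = 1.1e-06). HXT9, a hexose transporter homologue, had −2.94, 2.60 and −0.09 (adjusted p = 2.67e-05). REE1, which is linked to enolase regulation, had −2.54, 5.63 and 0.01. Its direct and indirect ratios differed by 3.09, the widest gap of all ORFs. Its limma call (adjusted p = 0.039) was lost with robust moderation of the variances, without centring and with 4 prior degrees of freedom. It was also lost with centring on interior ORFs and without the multi-copy families. The sign of REE1 was the same on both paths. The isomaltase gene IMA4 at −0.68 and YJL220W at −0.51 completed the run of 5 called ORFs. VTH2 on the outer side was at 0.05 and the isomaltase gene IMA5 on the inner side at −0.20.

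Ends with relatives of these genes were also lower. On the left arm of chromosome IX, HXT12 was at −1.32 and YIL171W beside it at −0.64, both called, while the isomaltase gene IMA3 was at −0.34 and was not. On the left arm of XV, HXT11 was at −2.86 in the direct sample but at −1.20 through the hybrid. CSS3 near it was at −1.18 and −2.45. HXT9, HXT11 and HXT12 are close relatives, so their spots may share signal, which was not tested. The calls of HXT11, HXT12 and CSS3 had adjusted p of 0.0187, 0.029 and 0.0301 by limma and, as for REE1, were lost under the same 3 settings.

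PGU1, the endopolygalacturonase gene that lets yeast degrade pectin, was lower in Sc1. Its ratio was −2.21 in the direct sample, 0.20 in the hybrid over Sc1 and −3.63 in the hybrid over Sc2, so signal was low in Sc1 and in the hybrid alike. The limma estimate was −2.75 ± 0.31 (adjusted p = 0.00743), and it was not called with robust moderation. Its neighbours, the allantoate permease gene DAL5 and YJR154W, were at 0.07 and 0.03. Smaller called deficits of signal in Sc1 near chromosome ends were those of the flocculin gene FLO1 at −0.55, YMR326C at −0.52, the hexokinase gene HXK1 at −0.49, FMP27 at −0.48, and the neighbours YKL222C and MCH2 at −0.43 each. ORFs at the right end of chromosome I, where FLO1 lies, tended to be low together in the direct sample: 18 of the 20 outermost were below 0 with a median of −0.17, against 12 of 20 and −0.08 through the hybrid. Other ends were shifted too, with listed Ty and Y′ ORFs left out. At the right ends of IV and VIII 15 of 17 and 12 of 17 were below 0 (median −0.11 at each). Through the hybrid these were 12 and 9 of 17, with medians of −0.052 and −0.045. At the left end of III 17 of 20 were above 0 (median 0.07, and 0.06 through the hybrid). The largest median was at the left end of VI, at 0.25 directly and 0.28 through the hybrid. At the left end of X the median was −0.02 directly and −0.18 through the hybrid.

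Retrotransposon sequence gave less signal in Sc1. Of 31 measured Ty ORFs, 18 were called lower, none was called higher, and 13 were not called, with a median direct ratio of −0.68 against 0 over all ORFs. The Ty and Y′ lists were written with earlier results known, and their counts and medians are descriptions. Where a Ty element has separate spots for its short gag ORF, which encodes the coat protein, and its long gag-pol ORF, which also encodes the enzymes, the ORFs did not behave alike. Over 13 such pairs, which were matched after the values were seen, the median direct ratio was −1.51 for gag ORFs and −0.17 for gag-pol ORFs. Of the gag ORFs 11 were called lower, and of the gag-pol ORFs 5. In 8 pairs the gag ORF was lower than its partner by at least 0.5 on both paths.

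The widest such gap was in the Ty4 element, where YJL114W was at −2.51 and YJL113W at 0.04. In the Ty2 element of chromosome II, YBL101W-A was at −1.59 and YBL101W-B at 0.02, and in a Ty1 element YMR051C was at −2.02 and YMR050C at −0.58. A counterexample was the Ty1 element of YML040W and YML039W, with −1.48 and −1.42, and the Ty3 ORFs YIL082W and YIL082W-A were both at 0.04. The elements of a family share sequence, so a spot may report on other elements besides its own locus, which was not tested. Spots of the Ty1 family still differed widely. Their direct ratios ran from −0.14 (YAR010C) to −2.02 (YMR051C) for gag ORFs and from −0.03 (YBL005W-B) to −1.42 (YML039W) for gag-pol ORFs.

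**Figure D5:**
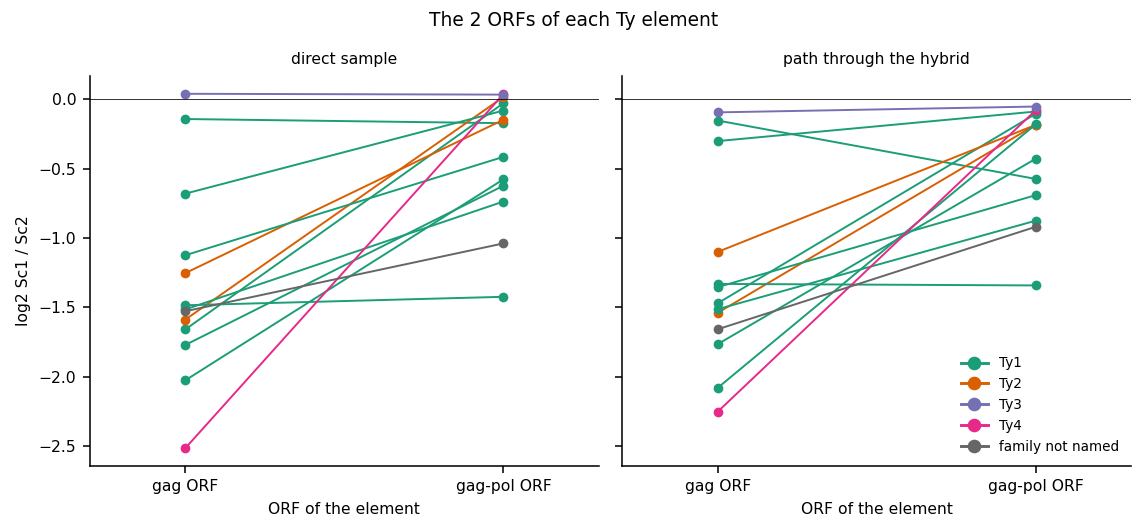
Ratio (y axis, log2 Sc1 over Sc2) of the gag ORF and the gag-pol ORF of each of 13 Ty elements, joined by a line, in the direct sample (left) and through the hybrid (right). Most lines rise from gag to gag-pol, from a median of −1.51 to −0.17 in the direct sample, while the Ty3 element lies near 0 at both ORFs.

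The Y′ elements, repeats next to many yeast telomeres that carry helicase-like ORFs, were lower in Sc1 as well. Of 35 measured Y′ ORFs 25 were called lower, none was called higher and 10 were not called, and the median was −0.90. By chromosome end, 11 of the 16 ends with such ORFs had at least 1 called, and 5 had none. The calls included all 3 listed ORFs at the right end of XVI, with ratios from −1.31 to −1.17, and all 3 listed ones at the left end of VI. The 5 ends without a call were the right ends of IV and VII and the left ends of IX, X and XII, where the medians ran from −0.24 (IX) to 0.06 (X). At the right end of XII 5 of 6 were called, and YRF1-5 was at 0.01 beside YRF1-4 at −1.14. Copies of Y′ share sequence between ends, so these values are not independent of each other.

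Outside the 20 outermost ORFs of each arm and outside the Ty and Y′ lists, 32 ORFs were called, 25 of them lower in Sc1. The lower ones had direct ratios from −1.34 to −0.34 with a median of −0.55, well short of those of REE1 or YJL218W, and indirect ratios from −0.85 to −0.31. For 16 of the 25 neither adjacent ORF was called, and the other 9 had a called neighbour. The 32 neighbours of the 16 had a median of −0.01, and 30 lay within 0.25 of 0. Over all ORFs 93.7% lay within that range, and these neighbours were uncalled by selection, so their low values are not a separate result.

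LAG1, a ceramide synthase gene, was at −0.79 between MRP4 at −0.00 and HSE1 at 0.08, and its call was the firmest of the lower interior genes (limma −0.74 ± 0.066, adjusted p = 0.00214). OSH7, which encodes a lipid transfer protein, was at −0.79, and YAT1, a carnitine acetyltransferase gene, at −0.90. ECM23 was at −0.60 and YDR215C at −0.63, with limma adjusted p of 0.0042 and 0.00506. The glutathione peroxidase gene GPX1 was at −0.61 and PDR12, the pump for weak organic acids, at −0.42. BST1, which acts in the remodelling of GPI anchors, was at −0.50 and lay beside EPL1, a histone acetyltransferase subunit gene, at −0.55.

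The replication helicase gene MCM5 was at −0.58, the G protein beta subunit gene STE4 of the mating pathway at −0.51, and the multicopper oxidase gene FET5 at −0.55. The lowest interior value was that of CUE4, at −1.34 in the direct sample and −0.53 through the hybrid, beside YML101C-A at −0.74 and −0.45. YJL027C was at −1.13 and −0.50, beside YJL028W at −0.52 and −0.32. Apart from the CUP1 repeat, the higher interior calls were SWP1, a subunit gene of the oligosaccharyltransferase, at 0.58, the kinetochore gene CTF3 at 0.41, the mediator gene MED2 at 0.37 and the ATP synthase gene ATP4 at 0.36. Of these, CTF3, SWP1, MED2 and ATP4 lost their calls both without centring and with 4 prior degrees of freedom. The same held for CUE4, YJL027C, YJL028W, FET5, OSH7 and PDR12.

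Of 14 maltose and isomaltose genes 6 were called higher and 1 lower in Sc1, with a median direct ratio of 0.08. Of 20 genes for hexose transporters and sensors, HXT15 and HXT16 were called higher, HXT9, HXT11 and HXT12 lower, and 15 were not called. Of 8 sucrose and polyol genes 3 were higher (SOR1, SOR2 and MAN2). Among 29 nitrogen permease genes SEO1 and AGP3 were higher, and among 22 iron and siderophore genes the siderophore transporter gene ARN1 was higher at 0.45 and FET5 lower. COS12 was the only called member of 12 COS genes, of which 11 had a direct ratio above 0 and whose median was 0.14. PDR12 was the 1 called member of 16 aroma genes and HXK1 the 1 of 37 glycolytic and fermentative genes. Without centring and with 4 prior degrees of freedom ARN1, FET5, MAN2, PDR12 and HXK1 lost their calls, which left the aroma list and the glycolytic list with none. ARN1 was also lost with centring on the mode and on interior ORFs, and MAN2 with centring on the mode. The list counts stand beside 0.523% higher and 1.45% lower over all ORFs.

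No member was called in 14 of the 28 lists, which held 317 measured genes. These lists were grouped because they held no call, so the absence of calls among their genes is not a separate result. Over all tested ORFs 1.98% were called, and a short list would often hold none at that share. An unadjusted p under 0.05 was found for 9.57% of all tested ORFs. The 130 cytosolic ribosomal protein genes ran from −0.30 (RPS24B) to 0.29 (RPL34A), and 10 of them had an unadjusted p under 0.05. The 34 wall mannoprotein genes, of interest because the title of the series names mannoprotein release, ran from −0.26 (CWP1) to 0.22 (GAS5), and none had an unadjusted p under 0.05. The 31 protein mannosylation genes ran from −0.22 (PMT5) to 0.26 (PMT6), with 2 at an unadjusted p under 0.05. The 23 seripauperin genes, a large subtelomeric family of anaerobically expressed proteins, ran from −0.15 (PAU14) to 0.11 (PAU16). Of these 18 were below 0, with a median of −0.04 in the direct sample and −0.07 through the hybrid. How far their spots share signal was not tested. The sodium pump genes ENA1, ENA2 and ENA5 were at 0.14, 0.15 and 0.22 in the direct sample and at 0.35, 0.64 and 0.47 through the hybrid; all 3 had an unadjusted p under 0.05 and none was called. In the copper, sulphite and arsenic list, the sulphite pump gene SSU1 was at 0.11 and was not called.

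The direct sample and the indirect path did not always give the same size. Their difference had an SD of 0.19 over the tested ORFs. After REE1 at 3.09, the widest gaps were those of HXT11 at −1.66, PGU1 at 1.63, HXT12 at 1.41 and NUD1, a spindle pole gene, at 1.35. NUD1 was at −0.27 in the direct sample and −1.62 through the hybrid, where a hybrid over Sc1 ratio of 1.71 set it apart, and it was not called. Conversely, YAR040C and YKL097C were at −1.28 and −1.21 in the direct sample but at 0.06 and −0.04 through the hybrid, and neither was called. They were the only ORFs of the 53 at 1 or more in size that were not called. The glycolytic gene GPM1 was likewise at −0.57 in the direct sample alone, against 0.22 through the hybrid.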

How the data were processed

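The deposited table gives 1 value per ORF and sample. Per the labels each sample was a set of duplicate arrays with exchanged dyes, already combined by the authors. The deposited values carry no stated unit, were recorded as a score, and were read as log2 ratios of the first-named over the second-named strain. The sources used here give no scanner, background correction, normalization or genome build. Without intensities the signal over background is unknown, and the number of arrays limits the precision.

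Whole-number cells of 1000 or more in size (51 in the direct sample) were taken to lack a decimal point, which division by 1000 restored. Each sample was centred on its median. The 3 samples were fitted as the sides of a triangle with lmFit and eBayes of limma 3.58.1 (R 4.3.3), with Benjamini-Hochberg adjustment over 6123 ORFs. The median SE was 0.064 and the prior degrees of freedom were 5.30. The fit was also tested on simulated data.

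Symbols came from a RefSeq gene table of assembly R64 for 5669 ORFs, and 502 kept the array's name. Chromosome, arm and order were read from systematic names for 6138 ORFs, and 33 had none.

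The ORFs to be described and the gene lists were chosen with earlier results of these data known. Names were drawn from the 15 highest and 15 lowest called estimates, list members, called interior ORFs and blocks. They were also drawn from the 10 ORFs with the widest gap between direct and indirect value, and from neighbours of all these. Not every ORF that met these rules is named. Further smaller calls near chromosome ends were named after their values were seen. Alternatives varied the centring, the restored cells, the multi-copy families, the moderation and the call rule.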

Additional observations from a re-analysis of the deposited data

How the results depend on the processing

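The 121 calls became 93 without centring, 126 with samples centred on their mode (116 of them shared with the 121), 113 with centring on interior ORFs, 113 with robust moderation and 91 at 4 prior degrees of freedom. Larger moves were 61 without ORFs that had a restored decimal point, 55 without Ty, Y′, COS, seripauperin and DUP240 ORFs, 80 at an adjusted p under 0.01, 43 where both paths were at least 1 in size and 53 where the direct sample was. The first 2 of these leave ORFs out of the test by construction, but 9 and 22 ORFs kept in the test also lost their calls there, ARN1 and HXK1 in both and REE1, HXT12, CSS3, FLO1, OSH7 and CUE4 without the multi-copy families. Without centring 28 calls were lost, and at 4 prior degrees of freedom 30, FLO1, HXK1, ARN1 and SNZ3 among both. Robust moderation lost 8: REE1, PGU1, HXT11, HXT12, CSS3, CUE4, NAR1 and ESL1. Centring on the mode lost MED2, SNZ3, ARN1, CTF3 and MAN2. The spread of the chromosome medians was 0.05 in the direct sample and 0.155 through the hybrid, and the cause was not tested. No paired analysis was possible because each pair of strains has a single sample with no replicate number.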

Other observations

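The Arabidopsis control spot, which holds sequence of neither parent, was at −0.01 in the direct sample as deposited, but at 0.17 in the hybrid over Sc1 and 0.41 in the hybrid over Sc2. The 3XSSC buffer spot was at −0.01 in the direct sample.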
